A study of Homo sapiens with 47 samples.

Results

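The genes described here are the metalloproteinases of the ADAM, ADAMTS and MMP families and their TIMP inhibitors. A member is a protein-coding gene whose symbol is ADAM, ADAMTS, MMP or TIMP followed by digits and whose mean TPM (a level scaled to transcript length and to the total of the library) was at least 1 in at least 1 of 16 conditions. Of 65 genes with such names, 46 met this threshold: 12 of 20 ADAM, 18 of 19 ADAMTS, 12 of 22 MMP and 4 of 4 TIMP genes. They stand among 14598 protein-coding genes, of 19737 listed, that met the same threshold. The members were thus chosen by their deposited TPM values, so a member that is high in few conditions was bound to vary, and the levels are given as a description.

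The study followed WA09 (H9) human embryonic stem cells (hESCs), an established line, from the undifferentiated state (t0) through neuromesodermal progenitor (NMP)-like cells at 36h to cultures of pre-neural progenitors (PNPs) and neural crest (NC) cells at passages P1 to P10. Undifferentiated cells grew in mTESR1 on Matrigel, a basement membrane matrix, whereas from induction onward all cells were in N2B27 (-vitamin A) to which rhFGF2, Y-27632, CHIR-99021 and AGN193109 had been added, so that time, medium and agents changed together between t0 and the later stages. CHIR-99021 is an agonist of WNT signaling, rhFGF2 is recombinant FGF2, AGN193109 is an inverse agonist of the retinoic acid receptors and Y-27632 is a ROCK inhibitor. The paper states that a higher dose of Y-27632 was needed in the first 3 passages than at other times. Dose and passage thus changed together as well, for example between P1 and P5. There were 35 whole-culture libraries, 3 per time point except 2 at P9, and 12 libraries of mesenchymal (MES) and epithelial (EPI) fractions, which were separated at P5 and P8 by their ease of detachment with TrypLE express, 3 per fraction and passage. All libraries come from 1 cell line. Libraries with the same number belong to the same differentiation experiment, and values given as 3 numbers follow the order of differentiations 1, 2 and 3. The fractions are enrichments and not sorted cells.

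ADAM proteins are membrane-anchored proteinases that release the outer parts of Notch receptors, cadherins and growth factor precursors. ADAMTS proteins are secreted and cut proteoglycans such as versican and the ends of procollagens, and MMPs degrade collagens, laminins and other matrix proteins, either in secreted form or tethered to the membrane. TIMPs bind the active site of these enzymes and block it. Cells that leave an epithelium, as NC cells do when they delaminate from the neural tube, use members of these families to remodel the matrix and the junctions around them.

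The library totals ranged from 13029491 to 64082859 expected counts, with a median of 47292229. In 40 of 47 libraries the total lay above the number of reads per sample that the labels state, and the sources used here do not explain this. The pluripotency and NMP markers followed the stage labels: 5 pluripotency genes summed to between 3092 and 3480 TPM at t0 and to at most 10.35 TPM at P8, and 4 NMP genes summed to between 119 and 1345 TPM at 36h against at most 3.06 TPM at t0. The 5 pre-neural markers did not set the later stages apart from t0. They summed to between 532.5 and 621 TPM at t0, where EPCAM was highest, 308.1 and 580.4 at P5, and 162 and 694.9 at P8. In the fractions, 10 NC markers summed to between 193.6 and 388.4 TPM in P5 EPI and between 576.3 and 768.6 TPM in P5 MES, without overlap. At P8 the same sum overlapped, at 223.6 to 1011 TPM in EPI and 440.8 to 1357 TPM in MES, and so did the 5 pre-neural markers, at 185.3 to 644.8 and 51.77 to 446 TPM. A few whole-culture libraries stood apart from their group: the P1 library of differentiation 1 still held 1238 TPM of pluripotency markers when the lowest P1 library held 100.4, and the P10 library of differentiation 1 held 427.1 TPM of pre-neural markers when the lowest P10 library held 5.24. Called members whose comparison holds these libraries are given with and without them. In bulk RNA, fewer cells of a type and less RNA per cell cannot be told apart.

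The highest level over the 16 conditions belonged to MMP2, a gelatinase, with a mean of 264.2 TPM. It was followed by ADAM10, the main sheddase of Notch receptors and cadherins, at 169.3 TPM, by MMP14, the membrane-type MMP that activates pro-MMP2, at 151.2 TPM, and by TIMP2 at 89.3 TPM. MMP11 (stromelysin-3), TIMP1, TIMP3, ADAM15, ADAM9 and ADAMTS7 completed the 10 highest, between 69.0 and 29.1 TPM. MMP11 owes its place to the P9 library of differentiation 2 (1071 TPM): without it its mean was 36.8 TPM, below TIMP1, TIMP3 and ADAM15, and ADAMTS10 (29.6 TPM) stood before ADAMTS7 (28.9 TPM). This order is that of means over all conditions and does not hold in each. At t0 ADAM10 had a mean of 171 TPM and MMP2 one of 57.4 TPM. In all, 27 of the 46 genes stayed at or above 1 TPM in each condition. The other 19 did so in fewer conditions, and 3 of them in 1 condition alone, namely ADAMTS8 and MMP9 at t0 and MMP13 at P10. The 3 members just inside the threshold by their highest mean were MMP9 (1.19 TPM at t0), ADAM18 (1.45 TPM in P8 EPI) and ADAMTS14 (1.75 TPM at P10), and the 3 genes just outside it were ADAMTS5 (0.627 TPM at P7), MMP10 (0.59 TPM at P10) and ADAM28 (0.437 TPM at t0). Among the 46 members, 8 had their highest mean at t0, 15 at P9 or P10 and 10 in a fraction.

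**Figure D1:**
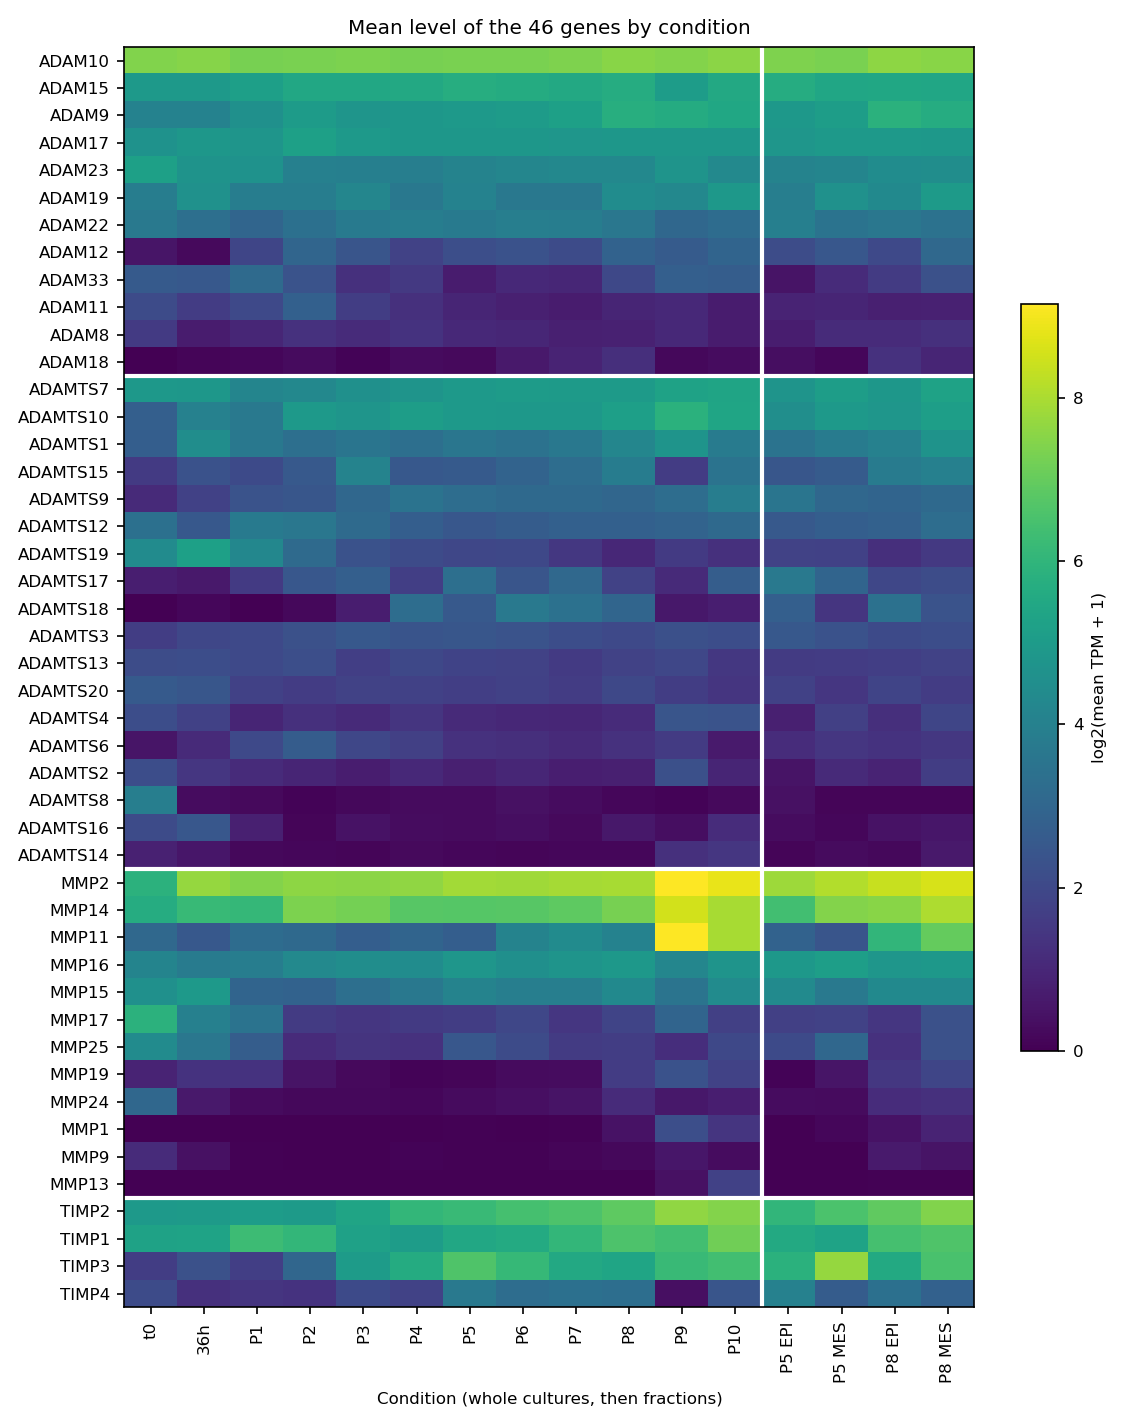
Each row is 1 of the 46 genes, ordered within its family by mean level, and each column 1 condition; color is log2(mean TPM + 1) over 3 libraries (2 at P9). ADAM10, MMP2 and MMP14 are bright throughout, MMP11 brightens at P9 and P10, and ADAMTS8, MMP17, MMP24 and MMP25 are brightest at t0.

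The families differed in how their summed levels changed. The ADAM sum was 314 ± 13.6 TPM (SD, n = 3) at t0 and 372 ± 43.0 at P10 (n = 3), and ADAM10 alone made up 54.6% of it at t0 and 50.4% at P10. The ADAMTS sum was 110 ± 3.13 TPM at t0, 134 ± 4.61 at 36h, 95.1 ± 8.94 at P1 and 148 ± 27.0 at P10. The MMP sum was 241 ± 23.3 TPM at t0, 397 ± 14.6 at P5 and 473 ± 98.2 at P8. It then spread widely, to 586.6 and 2497 TPM in the 2 P9 libraries and to 532.7, 996.4 and 1512 TPM at P10. The TIMP sum was 71.8 ± 2.37 TPM at t0, 112 ± 5.01 at P1, 229 ± 69.7 at P5, 265 ± 53.4 at P8 and 405 ± 146 at P10. As ratios of the P9 and P10 mean to t0, these are 1.15 for ADAM, 1.40 for ADAMTS, 5.08 for MMP and 5.36 for TIMP genes. The sums are dominated by few genes: at t0 MMP17 and MMP2 had nearly equal means of 57.5 and 57.4 TPM, with MMP2 the higher in differentiation 1 and MMP17 in 2 and 3, and MMP2 made up 58.4% of the MMP sum at 36h. Within the mean TIMP sum TIMP1 was the largest part at t0 (52.2%), TIMP3 at P5 (43.5%) and TIMP2 at P8 (44.6%), but TIMP2 was above TIMP3 in differentiation 1 at P5 and TIMP1 above TIMP2 in differentiation 2 at P8.

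**Figure D2:**
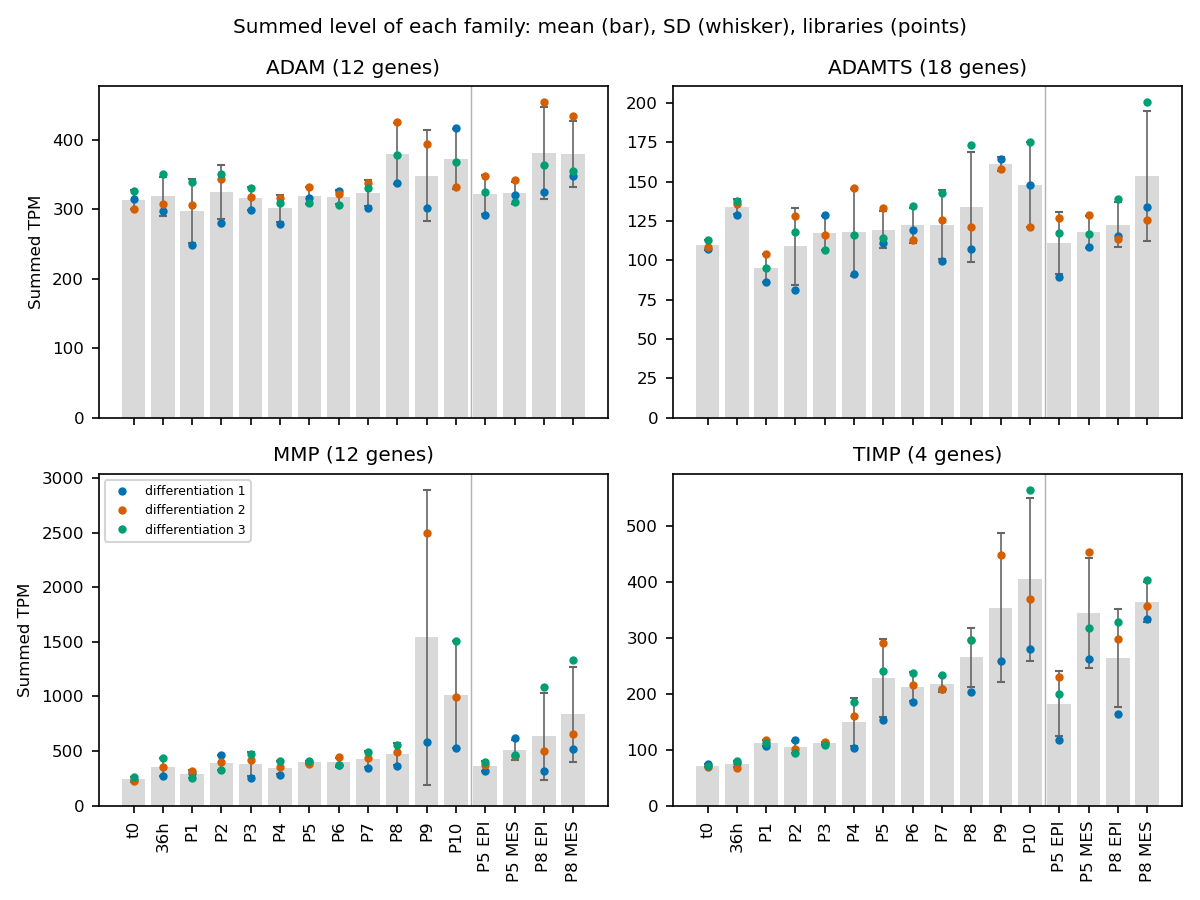
Summed TPM of each family's members in each condition, with the bar at the mean, the whisker showing the SD and each point 1 library. The ADAM sum stays between 298 and 380 TPM as a mean over the whole cultures, whereas the MMP and TIMP sums of whole cultures are highest at P9 and P10, where their libraries also lie farthest apart.

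The comparison of P8 with t0 has 3 libraries on both sides; it was added after the values of the other comparisons had been seen. A gene is called here when edgeR's quasi-likelihood test gave a Benjamini-Hochberg adjusted p under 0.01 over all genes tested, together with a change of 2-fold or more and a mean of 100 or more normalized counts, the thresholds of the study. All 46 members were tested, 39 of them with such a mean, and 19 (41.3%) were called, 11 higher and 8 lower at P8. Without ADAMTS8 and MMP9, which met the TPM threshold at t0 alone, it was 18 of 44 (40.9%). Of all genes tested 15.3% were called (7.66% higher and 7.67% lower), and of protein-coding genes past the same TPM threshold 20.6%. Markers of other cells moved with this comparison: the 4 smooth muscle markers summed to between 40.33 and 69.63 TPM at t0 and between 462.9 and 1593 TPM at P8 (2 called higher), and the 10 NC markers to between 49.46 and 55.43 and between 263.2 and 1016 TPM (6 called higher). Other sums fell. Endothelium markers went from between 49.33 and 56.47 TPM at t0 to between 2.18 and 10.43 TPM at P8. Blood and macrophage markers went from between 6.71 and 8.64 TPM to between 0.54 and 1.95 TPM. None of these markers was at 0 in each library of either group, and their part in the members' changes was not tested. The median log2 fold change of the members was 0.24, against 0.02 for all genes tested. Each called member had the same sign in 3 of 3 pairs and no overlap between its P8 and t0 libraries. The call itself selects for such a pattern, so here and below it describes the called members and adds no support. Without differentiation 2 the count was 9 and without differentiation 3 it was 10; the calls over all genes were then 9.31% and 11.2%.

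Among the inhibitors, 3 of 4 TIMPs rose. TIMP3, the TIMP that binds to the matrix and also inhibits several ADAM and ADAMTS enzymes, had 2.16, 2.39 and 1.94 TPM at t0 and 27.1, 47.2 and 48.3 TPM at P8. Each P8 library thus lay far above each t0 library, with a log2 fold change of 4.01 ± 0.575 (SE; adjusted p = 4.8e-06). TIMP2, which can both inhibit MMP2 and take part in its activation by MMP14, went from 30.4, 27.3 and 29.1 TPM to 92.6, 118 and 144 TPM (log2 fold change 1.87 ± 0.249, adjusted p = 1.8e-06). TIMP1, a secreted inhibitor of most MMPs, was at 38.0, 36.8 and 37.6 TPM at t0 and at 70.5, 126 and 95.1 TPM at P8 (log2 fold change 1.17 ± 0.311, adjusted p = 0.0032). The t0 libraries of TIMP1 and TIMP2 lie close together, and the P8 libraries spread more. TIMP4 was not called, at 3.85, 3.12 and 2.95 TPM against 13.6, 4.31 and 8.68 TPM (log2 fold change 1.27 ± 1.06, adjusted p = 0.33). TIMP1 lost its call without differentiation 2 or 3 (log2 fold change 0.96 and 1.21).

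MMP genes moved in both directions. MMP2, which cuts denatured and basement membrane collagen, was at 62.8, 48.6 and 60.9 TPM at t0 and at 218, 210 and 309 TPM at P8 (log2 fold change 1.97 ± 0.408, adjusted p = 0.00033). MMP14 was at 47.7, 47.3 and 53.6 TPM at t0 and at 94.1, 200 and 174 TPM at P8 (log2 fold change 1.43 ± 0.325, adjusted p = 0.00083). Of 6 membrane-type MMPs, MMP14 rose, 3 fell and 2, MMP15 and MMP16, were not called. MMP17, anchored by a glycolipid tail, fell from 45.4, 53.3 and 73.8 TPM to 1.32, 2.39 and 4.24 TPM (log2 fold change -4.48 ± 0.831, adjusted p = 0.00011). MMP25, the other glycolipid-anchored member, fell from levels between 19.4 and 21.8 TPM to 2.12, 1.89 and 2.58 TPM (log2 fold change -3.35 ± 0.868, adjusted p = 0.0026). MMP24, known as MT5-MMP and best studied in neural tissue, fell from 7.58, 6.90 and 7.63 TPM to 0.77, 2.31 and 0.53 TPM (log2 fold change -2.86 ± 0.812, adjusted p = 0.0052). At t0 MMP2, MMP14, MMP17 and MMP25 all lay between 19.4 and 73.8 TPM, and at P8 MMP2 and MMP14 had at least 94.1 TPM where MMP17 and MMP25 had at most 4.24 TPM. MMP2 lost its call without differentiation 2 or 3 (2.03 and 1.77), as did MMP14 (1.12 and 1.37, and 1.60 without the replicate block) and MMP25 (-3.19 and -3.51), MMP17 without differentiation 2 (-4.40) and MMP24 without 1 or 3 (-2.61 and -2.30).

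Of the 18 ADAMTS genes, 4 rose and 4 fell. In the group that cuts versican and aggrecan, ADAMTS1 and ADAMTS9 rose while ADAMTS4 and ADAMTS8 fell. ADAMTS9 was at 1.04, 1.12 and 1.18 TPM at t0 and 6.18, 6.81 and 8.42 TPM at P8 (log2 fold change 2.68 ± 0.563, adjusted p = 4e-04). ADAMTS1 was at 5.13, 5.31 and 6.50 TPM and then 11.8, 14.3 and 26.6 TPM (1.45 ± 0.341, adjusted p = 0.0011). ADAMTS8 had 14.8, 12.3 and 15.8 TPM at t0 and at most 0.21 TPM at P8; it met the TPM threshold at t0 alone, so that its fall follows from the choice of members and is a description. ADAMTS4 stood at 3.65, 3.67 and 3.13 TPM against 1.15, 0.55 and 1.89 TPM (-1.82 ± 0.523, adjusted p = 0.0058), and its call was lost without each of the 3 differentiations (-1.504, -1.60 and -2.28), without the replicate block (-1.58) and with only these groups in the fit (-1.75). ADAMTS10, which binds fibrillin microfibrils, rose from 5.34, 4.33 and 8.05 TPM to 16.1, 38.8 and 51.1 TPM (2.46 ± 0.377, adjusted p = 1.1e-05). ADAMTS2, the procollagen N-proteinase, fell from 3.50, 3.06 and 3.75 TPM to 0.42, 0.57 and 1.21 TPM (-2.37 ± 0.529, adjusted p = 0.00071). ADAMTS19 fell from 21.3, 21.8 and 17.8 TPM to 1.85, 0.58 and 0.67 TPM (-4.46 ± 0.451, adjusted p = 3.9e-08). ADAMTS18 was near 0 at t0, with 4 counts over the 3 libraries, and reached 15.8, 2.33 and 2.85 TPM at P8 with 3505 counts (adjusted p = 4.9e-05). Its ratio was 819, with a 95% exact interval of 320 to 3009 that covers counting error only. Differentiation 1 held most of these counts, and the ratio without it was 172 (67.0 to 634.3). Without differentiation 2 it was 3097 from 1 count at t0 (555.4 to 1.22e+05). ADAMTS1 lost its call without differentiation 1 or 3 (1.65 and 1.10), ADAMTS2 without 2 (-2.24) and ADAMTS9 without 1 (2.70).

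Of the 12 ADAM genes, 2 rose and 1 fell. ADAM10 was not called, at 172, 167 and 175 TPM at t0 and 175, 208 and 176 TPM at P8 (log2 fold change -0.02 ± 0.142, adjusted p = 0.92). ADAM17, the sheddase of TNF and of EGF receptor ligands, was at 23.7, 25.0 and 24.2 TPM and then 26.4, 28.2 and 27.8 TPM (0.08 ± 0.118, adjusted p = 0.61). Of 8 catalytic ADAMs, ADAM9 and ADAM12 rose. ADAM9 was at 15.4, 14.3 and 17.7 TPM at t0 and 40.0, 78.1 and 40.9 TPM at P8 (1.68 ± 0.329, adjusted p = 2e-04). ADAM12, a marker of mesenchyme and regenerating muscle, was at most 0.59 TPM at t0 and had 2.74, 1.77 and 14.5 TPM at P8 (3.81 ± 1.06, adjusted p = 0.0045). ADAM11, a proteinase-dead relative expressed in neurons, fell from 3.12, 2.34 and 4.21 TPM to 0.68, 0.81 and 1.37 TPM (-2.02 ± 0.489, adjusted p = 0.0015). ADAM15 (0.73, adjusted p = 1.7e-05) and ADAM23 (-0.78, adjusted p = 0.0026) passed the p threshold with a change under 2-fold. ADAM11 and ADAM12 lost their calls without differentiation 2 or 3 (-2.03 and -2.15, and 4.20 and 2.77), and ADAM9 without 2 (1.25). ADAM8, ADAM18, ADAMTS14, MMP1 and MMP9 passed the p threshold with a mean under 100 normalized counts; MMP9 met the TPM threshold at t0 alone and ADAM18 at P8 and in P8 EPI alone, so that the values of these are a description. ADAM18 and MMP1 had 0 counts at t0. Against a floor of 3 counts per library, ADAM18 (0.28, 3.26 and 0.53 TPM at P8) was at least 8.17-fold higher and MMP1 (0.24, 0.80 and 0.09 TPM) at least 6.33-fold higher. Most of these counts were in differentiation 2, and the bounds without it were 2.77 and 2.79.

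**Figure D3:**
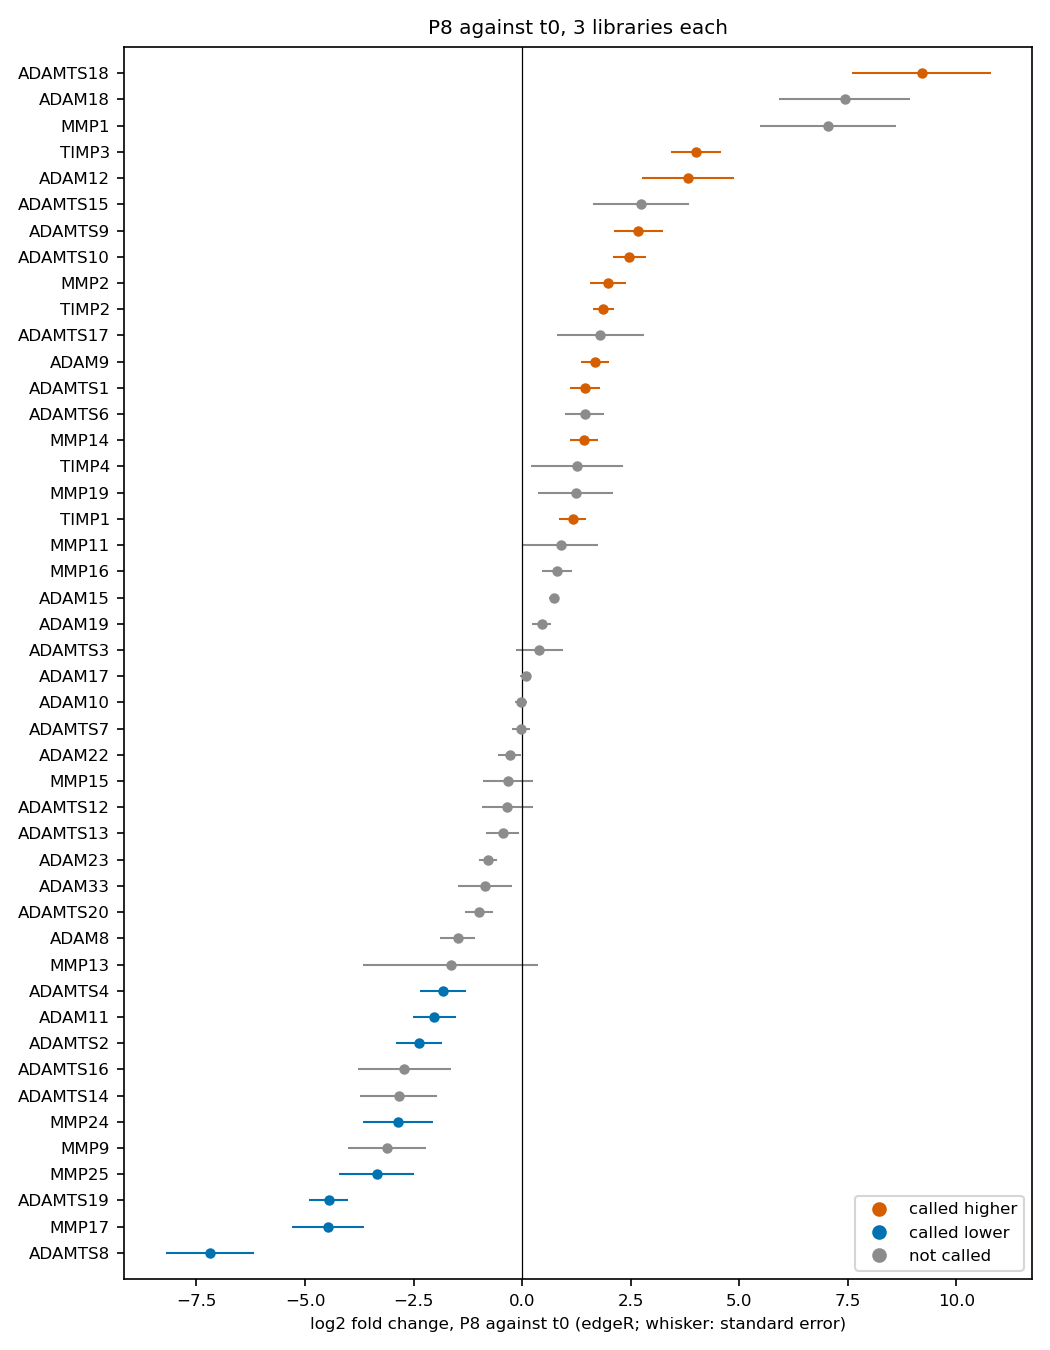
The log2 fold change of P8 against t0 for the 46 members, with the standard error as a whisker, from edgeR; orange and blue mark the 19 called members and gray the others. The fitted values of ADAMTS18, ADAM18, MMP1 and MMP13 rest on very few counts at t0 or in both groups and are no measure of size.

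Promoter sequences are shown for the 2 genes with the largest called rises from P1 to P5 (TIMP3 and ADAMTS18), for ADAMTS19, which fell over the same passages, and for MMP11, the member called at P9 and P10. They are RefSeq sequences (GRCh38.p14) that run up to the annotated start and stop before the first base of any GENCODE 29 exon of the gene. TIMP3 is read on the + strand at chr22:32801455-32801700, ADAMTS18 on the - strand at chr16:77435115-77435284, ADAMTS19 on the + strand at chr5:129460048-129460264 and MMP11 on the + strand at chr22:23772599-23772818. Capitals mark GC boxes, GGGCGG on either strand.
TIMP3: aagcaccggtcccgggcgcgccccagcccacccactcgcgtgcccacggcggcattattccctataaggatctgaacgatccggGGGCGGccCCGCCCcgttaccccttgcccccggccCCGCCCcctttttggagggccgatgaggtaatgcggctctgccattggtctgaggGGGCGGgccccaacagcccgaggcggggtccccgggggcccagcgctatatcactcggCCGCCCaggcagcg
ADAMTS18: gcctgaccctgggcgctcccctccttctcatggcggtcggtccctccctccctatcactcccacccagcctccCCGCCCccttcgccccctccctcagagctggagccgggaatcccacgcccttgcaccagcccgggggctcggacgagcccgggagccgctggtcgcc
ADAMTS19: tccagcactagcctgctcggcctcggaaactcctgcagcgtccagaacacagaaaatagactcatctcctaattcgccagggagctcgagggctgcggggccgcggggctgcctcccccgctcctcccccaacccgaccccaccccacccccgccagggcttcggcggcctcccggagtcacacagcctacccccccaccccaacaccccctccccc
MMP11: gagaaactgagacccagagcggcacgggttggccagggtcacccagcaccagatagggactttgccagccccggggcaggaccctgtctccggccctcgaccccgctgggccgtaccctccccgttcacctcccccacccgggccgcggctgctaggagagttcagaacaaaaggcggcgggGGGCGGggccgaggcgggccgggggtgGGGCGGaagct
Over the full windows of 250 bases before to 50 after the start, TIMP3 held 5 GC boxes, MMP11 held 4, ADAMTS18 held 2 and ADAMTS19 held 1, so that genes with opposite changes shared the motif. Of the 27 members with a sequence, 25 (92.6%) held a GC box, against 59.5% of 14896 protein-coding promoters, and their median GC content was 72.7% against 63.0%. The E-box CAGGTG, on either strand, was in 18.5% of them against 19.8%, and the AP-1 motif TGANTCA in 3.7% (ADAMTS12) against 5.78%. Such matches describe letters in a window. The members were chosen by level and the comparison promoters were not, so these shares do not compare like genes. Some members had no sequence. The RefSeq start of MMP11 lies inside the GENCODE gene, which spans chr22:23768226-23784316.

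The first step, 36h against t0, covers the induction of NMP-like cells. The called members were ADAMTS1, ADAMTS10 and MMP2, which rose, and ADAMTS8 and MMP24, which fell, making 5 of 46 (10.9%), or 4 of 44 (9.09%) without ADAMTS8 and MMP9, which met the TPM threshold at t0 alone. This stands against 2.69% of all genes and 3.7% of protein-coding genes past the same TPM threshold. DESeq2 called the same 5 and 4.02% of all genes. MMP2 had 149, 235 and 238 TPM at 36h against 48.6 to 62.8 TPM at t0 (log2 fold change 1.85 ± 0.406, adjusted p = 0.0038). ADAMTS1 had 15.6, 34.2 and 15.4 TPM against 5.13 to 6.50 (1.85 ± 0.345, adjusted p = 0.00091), and ADAMTS10 had 14.9, 18.4 and 12.8 TPM against 4.33 to 8.05 (1.497 ± 0.366, adjusted p = 0.0081). For each of these the 36h and t0 libraries do not overlap, which the call itself favors, so this is a description. ADAMTS8 was down to 0.45, 0.12 and 0.15 TPM, a description for the reason given above, and MMP24 to 0.42, 0.69 and 0.53 TPM (-3.78 ± 0.842, adjusted p = 0.0042). ADAMTS8 and MMP24 were thus already under 1 TPM at 36h, whereas MMP17 (24.2, 15.9 and 4.55 TPM) and MMP25 (14.3, 11.2 and 8.39 TPM) were at intermediate levels. The inhibitors were not called: TIMP1 gave a log2 fold change of -0.03 (adjusted p = 0.98), TIMP2 0.04 (0.96), TIMP3 0.69 (0.44) and TIMP4 -1.59 (0.39). Nor were MMP14 (0.41, adjusted p = 0.45), ADAM10 (-0.01, 0.99) and ADAM17 (0.20, 0.31). No member was called without differentiation 2 or without differentiation 3, when the calls over all genes fell to 0.368% and 0.436%, and 2 were called when the fit held only these 2 groups. The log2 fold changes without differentiation 2 and without 3 were 1.73 and 1.73 for MMP2, -3.97 and -3.70 for MMP24, 1.39 and 2.06 for ADAMTS1 and 1.37 and 1.63 for ADAMTS10. Without differentiation 1, ADAMTS1 (2.06, adjusted p = 0.014) and MMP24 (-3.60, adjusted p = 0.018) lost their calls too, so that both were lost in each of the 3 fits, and ADAM19 was called (1.06, adjusted p = 0.0034). ADAMTS10 also lost its call without the replicate block (1.49, adjusted p = 0.025). The 36h library of differentiation 1 stood apart in the NMP gene TBXT (62.3 TPM against 477 and 493) and in SOX2 (217 TPM against 21.3 and 4.14). The 3 endoderm markers summed to between 0.1 and 0.24 TPM at t0 and between 7.48 and 33.27 TPM at 36h, with 1 marker at 0 in all libraries at t0 and 1 at 36h, and the part of these in the members' changes was not tested.

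Between 36h and P1 edgeR called no member, against 1.19% of all genes and 1.6% of protein-coding genes past the TPM threshold; 13 members (28.3%) and 23.4% of all genes had an unadjusted p under 0.05, and DESeq2 called 4 (ADAM12 and ADAMTS6 higher, ADAMTS4 and MMP15 lower) and 2.63% of all genes. ADAM12 showed how far the P1 library of differentiation 1 lay from the others, with 0.11 TPM against 1.88 and 6.21. MMP15 was at 9.75, 4.61 and 5.99 TPM against 17.7, 14.6 and 55.1 at 36h. TIMP1 was at 76.9, 80.5 and 70.5 TPM against 44.3, 36.9 and 35.3, without overlap, yet was not called (log2 fold change 0.90 ± 0.31, adjusted p = 0.07). The other fixed genes gave log2 fold changes of 0.10 (TIMP2), -0.63 (TIMP3), 0.38 (TIMP4), -0.18 (MMP2), -0.21 (MMP14), -0.14 (ADAM10) and -0.09 (ADAM17), with adjusted p between 0.52 and 0.89. Without the P1 library of differentiation 1 the count was 5, and without differentiation 1 altogether it was 6, against 3.72% and 4.23% of all genes.

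From P1 to P5, 2 of 4 TIMPs rose. TIMP3 went from 2.59, 1.93 and 2.15 TPM to 42.1, 130 and 127 TPM, and TIMP2 from 24.5, 34.1 and 39.1 TPM to 69.7, 79.5 and 71.2 TPM. Their P5 libraries all lie above the P1 libraries. The log2 fold changes were 5.13 ± 0.61 for TIMP3 (adjusted p = 8.8e-06) and 1.05 ± 0.244 for TIMP2 (adjusted p = 0.0044). ADAMTS18 rose as well, from at most 0.02 TPM at P1 to 8.40, 3.48 and 2.67 TPM (adjusted p = 0.00084), a ratio of 415 with an exact interval of 162 to 1524 from 4 and 2028 counts, and of 265 (90.2 to 1287) without differentiation 1 and 648 (179 to 5358) without differentiation 2. The called falls were ADAM33, an asthma-linked catalytic ADAM of mesenchymal cells, from 3.93, 9.32 and 10.4 TPM to 0.84, 0.30 and 0.72 TPM (log2 fold change -3.68 ± 0.683, adjusted p = 0.00075), and ADAMTS19, from 24.2, 14.3 and 15.8 TPM to 3.05, 2.22 and 3.37 TPM (-2.85 ± 0.418, adjusted p = 8.3e-05). These 5 are 10.9% of the members, against 4% of all genes (2.15% higher and 1.86% lower) and 5.49% of protein-coding genes past the TPM threshold. TIMP1 gave -0.86 (adjusted p = 0.057), TIMP4 3.03 (0.072; called at 4.09 without differentiation 1), MMP14 0.78 (0.096), MMP2 0.19 (0.79), ADAM10 -0.09 (0.71) and ADAM17 -0.04 (0.88). TPM ratios in this comparison lie 0.15 above the edgeR values at the median gene on the log2 scale, and 0.11 above them for P8 against t0. TIMP2 lost its call without the replicate block (1.02), without each differentiation (0.90, 1.02 and 1.19) and without the P1 library of differentiation 1 (0.96). The other 4 kept their calls without that library, at 5.68 for TIMP3, 8.33 for ADAMTS18 (whose fitted values rest on few counts at P1), -3.97 for ADAM33 and -2.64 for ADAMTS19. Without differentiation 2 the remaining call, 1 in all, was TIMP3 (0.471% of all genes were then called), with ADAM33 at -3.19, ADAMTS18 at 8.83 and ADAMTS19 at -2.87; without differentiation 3 it was ADAMTS19 (0.507%), with TIMP3 at 4.80, ADAM33 at -3.54 and ADAMTS18 at 8.29, and without differentiation 1 there were 8 calls (5.48%). With only P1 and P5 in the fit no member was called, and 0.0115% of all genes, at 5.20 for TIMP3, 8.19 for ADAMTS18, -3.72 for ADAM33 and -2.84 for ADAMTS19. Markers moved as well: the NC sum went from between 76.78 and 156 TPM at P1 to between 282.4 and 581.2 TPM at P5, the smooth muscle sum from between 186.8 and 311.3 to between 322.9 and 372.3 TPM and the pluripotency sum from between 100.4 and 1238 to between 20.52 and 42.52 TPM, each without overlap. The NMP sum fell from between 95.92 and 567.2 TPM at P1 to between 5.5 and 10.52 TPM at P5. Paraxial mesoderm markers summed to between 1.58 and 46.78 TPM and then between 0.85 and 1.08 TPM. Endothelium markers summed to between 6.69 and 15.44 TPM and then between 1.43 and 2 TPM. These 3 sums did not overlap between P1 and P5 either. The part of all these markers in the members' changes was not tested.

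Passage by passage, TIMP3 reached 8.32 and 11.1 TPM at P2 in differentiations 2 and 3 and 49.5 and 38.6 TPM at P3, when differentiation 1 had 2.03 and 5.77 TPM. In differentiation 1 it was at 13.3 TPM at P4 and 42.1 TPM at P5. ADAMTS18 was at 0.35, 0.93 and 0.70 TPM at P3 and at 4.13, 17.3 and 4.50 TPM at P4, and stayed between 2.33 and 17.3 TPM in each whole-culture library from P4 to P8. It had at most 0.95 TPM at P9 and 1.92, 0.02 and 0.18 TPM at P10. TIMP2 was at 36.9 to 41.9 TPM at P3, 52.4 to 80.3 at P4 and 79.6 to 124 at P7. TIMP1 at P3 and P4 was between 19.8 and 32.9 TPM in differentiations 2 and 3, whereas differentiation 1 had 65.5 and 36.1 TPM. ADAMTS19 descended from 24.2, 14.3 and 15.8 TPM at P1 through 9.93, 8.46 and 5.87 TPM at P2 to 4.92, 3.81 and 3.22 TPM at P3. ADAMTS10 was at 9.20 TPM in differentiation 1 and at 42.4 and 39.3 TPM in the other two at P2, and MMP14 at 66.6 against 232 and 194 TPM. In these passages differentiation 1 was therefore low in TIMP3, ADAMTS10 and MMP14 at once. Its libraries also stood apart in markers. TWIST1 was at 0.74 TPM against 46.1 and 73.6 at P2 and at 4.12 TPM against 157 and 214 at P3. CDX2 was at 352 TPM against 70.1 and 57.5 at P2. The part of these markers in the members' levels was not tested. These passages were not tested.

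**Figure D4:**
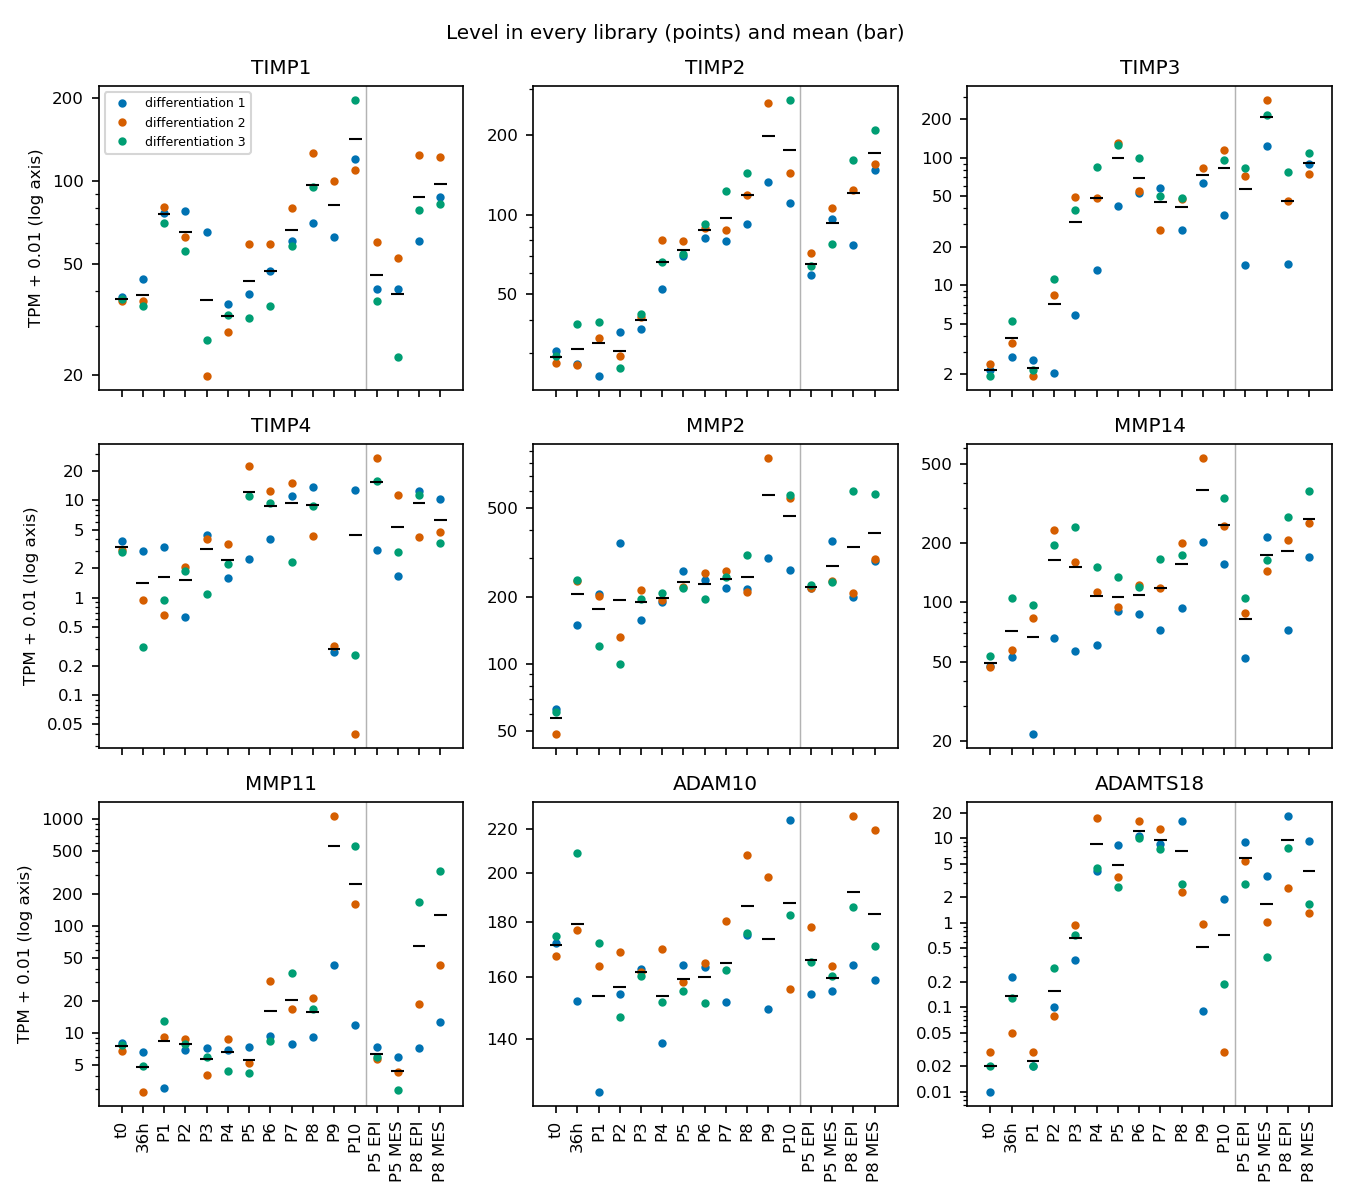
TPM (plus 0.01, on a log axis) of 9 members in each of the 47 libraries; colors mark the differentiations, black bars the means, and the gray line divides whole cultures from fractions. TIMP3 and ADAMTS18 start near 2 and near 0 TPM, ADAM10 keeps between 125 and 226 TPM (its axis spans a narrow range), and MMP11 and TIMP4 split by differentiation at P10.

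Between P5 and P8 no member was called by edgeR, against 0.0092% of all genes (0.0046% in each direction), or by DESeq2, against 0.713%, and 11 members (23.9%) and 13.3% of all genes had an unadjusted p under 0.05. TIMP1 came nearest among the fixed genes, with 39.2, 59.5 and 32.1 TPM at P5 and 70.5, 126 and 95.1 TPM at P8 (log2 fold change 1.159 ± 0.311, adjusted p = 0.09); its libraries do not overlap. TIMP2 gave 0.69 (adjusted p = 0.20), TIMP3 -1.18 (0.30), TIMP4 -0.56 (0.89), MMP2 0.12 (0.95), MMP14 0.45 (0.58), ADAM10 0.22 (0.54) and ADAM17 0.01 (1).

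At P9 and P10 against P8 the called member was MMP11, a secreted MMP of stromal and remodeling tissue. It had 9.12, 21.0 and 16.6 TPM at P8, 43.1 and 1071 TPM at P9 in differentiations 1 and 2, and 11.8, 161 and 565 TPM at P10. The P10 library of differentiation 1 falls within the P8 range, so the groups overlap, while the others lie above it. The log2 fold change was 4.47 ± 0.947 (adjusted p = 0.0059) and its sign was the same in 3 of 3 differentiations; without the P10 library of differentiation 1 it was 4.79 (adjusted p = 0.00024). This is 1 of 46 members (2.17%) against 1.25% of all genes and 1.78% of protein-coding genes past the TPM threshold. The call was lost without the replicate block (4.62), without differentiation 2 (3.21) or 3 (3.64) and with only these groups in the fit (3.51). The NC markers summed to between 263.2 and 1016 TPM at P8, 1281 and 1331 TPM at P9 and 385.9 and 1191 TPM at P10, the pre-neural markers to between 162 and 694.9, 16.51 and 16.73, and 5.24 and 427.1 TPM, and the smooth muscle markers to between 462.9 and 1593, 123.2 and 163.3, and 21.7 and 487.9 TPM; their part in the rise of MMP11 was not tested. CHCHD10, whose exons overlap those of MMP11 on the opposite strand, had means of 23.5 TPM at P8, 20.3 at P9 and 18.4 at P10. The strand setting of the counting is not given in the sources used here.

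DESeq2 called 7 members in this comparison and 3.4% of all genes, and 7 were called by edgeR without the P10 library of differentiation 1 and 9 without differentiation 1, against 4.64% and 4.12% of all genes. That library differed from the other two at P10 in several members, named here after their values were seen. It had 12.9 TPM of TIMP4 (0.03 and 0.25 in the others), 29.4 TPM of ADAMTS15 (0.30 and 0.63), 15.9 TPM of ADAMTS17 (0.52 and 0.18) and 50.9 TPM of MMP15 (4.54 and 6.42). It also carried the pre-neural markers, and their part in these levels was not tested. MMP2 was at 300 and 842 TPM at P9 and at 265, 555 and 571 TPM at P10 (log2 fold change 1.10 ± 0.371, adjusted p = 0.059; called at 1.44 without differentiation 1). MMP14 was at 202 and 536 TPM and then 157, 243 and 337 TPM (1.08 ± 0.297, adjusted p = 0.023; called at 1.18 without differentiation 1). TIMP4 gave -3.32 (adjusted p = 0.039; called at -5.34 without the P10 library of differentiation 1), TIMP2 0.73 (0.038), TIMP3 1.07 (0.15), TIMP1 0.08 (0.90), ADAM10 0.02 (0.96) and ADAM17 0.08 (0.70). MMP13, a collagenase, had 0 counts at P8 and 0.04 and 0.64 TPM at P9 and 0.03, 3.42 and 3.74 TPM at P10. It was at least 31.2-fold higher (21.8-fold without differentiation 3), but met the TPM threshold at P10 alone, so this is a description. Its mean of 51.2 normalized counts was under the minimum. MMP1, the interstitial collagenase, was at 6.36 and 0.81 TPM at P9 and 0.97, 1.96 and 2.09 TPM at P10 against 0.24, 0.80 and 0.09 TPM at P8; it met the threshold at P9 and P10 alone, as did ADAMTS14.

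The MES and EPI fractions ask how NC-enriched and PNP-enriched cells of the same culture differ. At P5 edgeR called 0 of 45 members tested (MMP13 was too low), as it called 0% of all genes. An unadjusted p under 0.05 was found for 15 members (33.3%) and 25.9% of all genes. DESeq2 called 4 (ADAMTS4, MMP14 and TIMP3 higher and ADAMTS18 lower in MES) and 3.59% of all genes. The paper, with DESeq2 at such thresholds, reported many genes that differed between the P5 fractions, so the 0% belongs to the edgeR fit used here. TIMP3 had 14.4, 72.2 and 83.0 TPM in EPI and 124, 285 and 214 TPM in MES. The fractions do not overlap, and within each differentiation MES was the higher (log2 fold change 2.13 ± 0.484, adjusted p = 0.037). MMP14 had 52.4, 88.7 and 106 TPM in EPI and 213, 145 and 164 TPM in MES, again without overlap (1.31 ± 0.393, adjusted p = 0.078). ADAMTS4 had 0.30, 0.42 and 1.47 TPM in EPI and 1.47, 2.49 and 3.08 TPM in MES (1.87 ± 0.443, adjusted p = 0.041). ADAMTS18 ran the other way, at 9.02, 5.38 and 2.90 TPM in EPI and 3.59, 1.00 and 0.38 TPM in MES; the groups overlap, but EPI was higher in 3 of 3 pairs (-2.49 ± 0.558, adjusted p = 0.035). The other fixed genes gave 0.57 (TIMP2, adjusted p = 0.16), -0.19 (TIMP1, 0.56), -1.55 (TIMP4, 0.32), 0.41 (MMP2, 0.53), 0.01 (ADAM10, 0.98) and 0.16 (ADAM17, 0.41). Markers of other cells moved with the fractions: the smooth muscle markers summed to between 139.7 and 210.6 TPM in P5 EPI and between 528.9 and 959.2 TPM in P5 MES, and their part in the differences was not tested.

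At P8 edgeR called 0 members and 0% of all genes between the fractions, DESeq2 called 0 members and 0.286% of all genes, and 10 members (22.2%) and 12% of all genes had an unadjusted p under 0.05. TIMP3 had 14.6, 46.1 and 77.4 TPM in EPI and 88.8, 74.4 and 109 TPM in MES (log2 fold change 1.32 ± 0.482, adjusted p = 0.36), higher in MES in 3 of 3 pairs although the groups overlap. MMP14 gave 0.50 (adjusted p = 0.64), MMP2 0.33 (0.75), TIMP2 0.49 (0.44), TIMP1 0.09 (0.87), TIMP4 -0.63 (0.81), ADAM10 -0.11 (0.64) and ADAM17 -0.08 (0.82). Whether the fraction difference itself changed from P5 to P8 was tested as an interaction. It called 0 members by edgeR and by DESeq2, against 0% and 0.0053% of all genes, and 3 members (6.67%) and 6.1% of all genes had an unadjusted p under 0.05; the interaction was -0.81 ± 0.655 for TIMP3 (adjusted p = 0.88), -0.80 ± 0.542 for MMP14 (0.85), -0.08 for TIMP2 (0.98), 0.28 for TIMP1 (0.88), 0.92 for TIMP4 (0.93), -0.08 for MMP2 (0.99), -0.12 for ADAM10 (0.90) and -0.23 for ADAM17 (0.85).

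**Figure D5:**
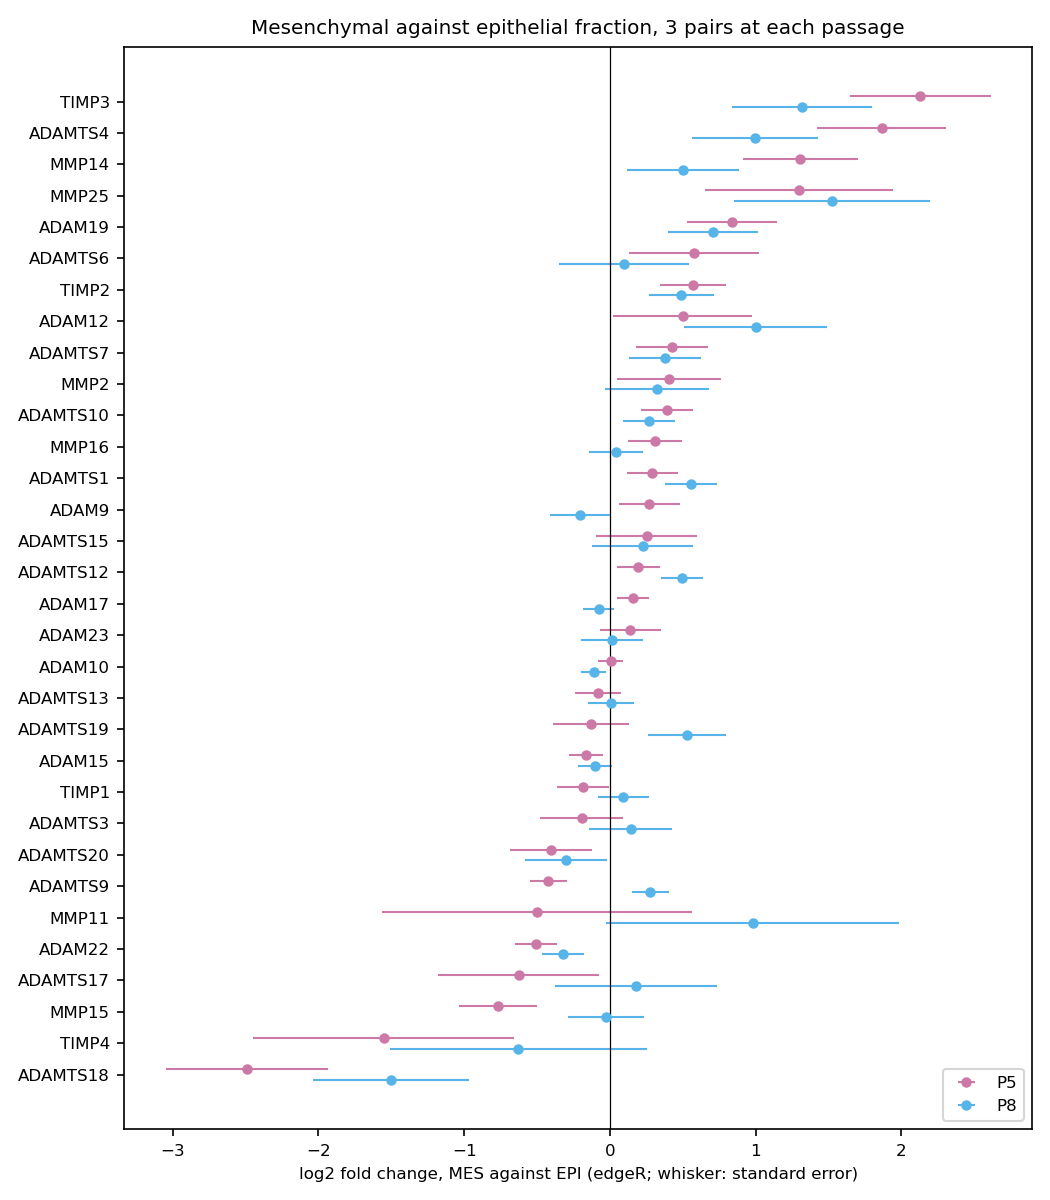
The log2 fold change of MES against EPI at P5 (pink) and P8 (blue), with the standard error as a whisker, for the 32 members that reached a mean of 100 normalized counts at both passages. TIMP3, ADAMTS4 and MMP14 lie farthest to the MES side at P5 and ADAMTS18 farthest to the EPI side, and no member was called by edgeR at either passage.

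Within the MES fraction, TIMP1 rose from P5 to P8. It had 40.7, 52.9 and 23.2 TPM in P5 MES and 87.3, 122 and 82.4 TPM in P8 MES, without overlap (log2 fold change 1.27 ± 0.179, adjusted p = 0.0087). It was the called member, 1 of 45 tested (2.22%), against 0.699% of all genes and 0.903% of protein-coding genes past the TPM threshold. The call was lost without the replicate block (1.24), with all 47 libraries in the fit (1.28), with only these groups (1.29) and without differentiation 2 (1.304) or 3 (1.11). TIMP2 gave 0.84 (adjusted p = 0.049), TIMP3 -1.04 (0.17), TIMP4 0.54 (0.74), MMP2 0.33 (0.58), MMP14 0.38 (0.55), ADAM10 0.14 (0.29) and ADAM17 -0.10 (0.59). Within the EPI fraction edgeR called 0 members against 0.259% of all genes (0.228% higher and 0.0318% lower), 19 members (42.2%) and 31.3% of all genes had an unadjusted p under 0.05, and DESeq2 called 2 (ADAMTS15 higher and ADAMTS19 lower at P8) and 3.21% of all genes; without differentiation 1 edgeR called 2 (TIMP1 and MMP14) and 2.01% of all genes. TIMP1 had 40.7, 60.2 and 36.8 TPM in P5 EPI and 61.0, 124 and 78.7 TPM in P8 EPI (0.99 ± 0.178, adjusted p = 0.02; 1.14 without differentiation 1). The other fixed genes gave 0.91 (TIMP2, adjusted p = 0.043), -0.23 (TIMP3, 0.77), -0.38 (TIMP4, 0.81), 0.41 (MMP2, 0.47), 1.19 (MMP14, 0.082; 1.43 without differentiation 1), 0.26 (ADAM10, 0.082) and 0.14 (ADAM17, 0.41). MMP19 passed the p threshold in both fractions, with a log2 fold change of 3.50 in MES (adjusted p = 0.0061) and 4.80 in EPI (adjusted p = 0.0071), and means of 71.0 and 44.7 normalized counts. Its levels were 0.11, 0.69 and 0.46 TPM in P5 MES and 2.46, 4.99 and 0.97 TPM in P8 MES. MMP1 also passed the p threshold in both fractions with a mean under 100 normalized counts. Its log2 fold change was 2.96 in MES. In EPI it had 1 count at P5 and 56 at P8, a ratio of 59.8 (exact interval 10.3 to 2405). Without differentiation 2 the EPI ratio was at least 3.02.

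MMP11 split by differentiation in the P8 fractions too, with 7.16, 18.7 and 169 TPM in EPI and 12.5, 42.8 and 324 TPM in MES, against 2.92 to 7.38 TPM in the P5 fractions. The whole-culture library of differentiation 3 at P8 had 16.6 TPM. The levels of MMP11 in both P8 fractions of differentiation 3 therefore lay above that of the whole culture from the same experiment. MMP2 showed the same in differentiation 3, at 599 and 578 TPM in the P8 fractions and 309 TPM in the culture. These comparisons within 1 differentiation have no replicate.

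Partners of these enzymes were followed in lists of regulators (27 genes, 26 found), matrix substrates (20 genes, 19 tested) and membrane substrates (22 genes, 21 tested in the time course). For P8 against t0, when 7.66% of all genes were called higher and 7.67% lower, 10 matrix substrates rose and 2 fell, with a median log2 fold change of 1.37. COL3A1, a fibrillar collagen (10.3), TNC, tenascin (6.11), COL2A1 (4.35) and COL5A2 (3.75) rose most, and the brain proteoglycans NCAN (-4.31) and BCAN (-2.32) fell. Of the membrane substrates 7 rose, led by EFNB2 (3.32), NCAM1 (3.07), CDH2 (2.47) and JAG1 (2.38), and CDH1, the epithelial cadherin that ADAM10 cuts, fell (-8.46). The median of that list was 1.44, against 0.02 over all genes. Regulators were mixed, with 4 higher (A2M, a broad proteinase trap, 7.87; PCSK6 4.25; ADAMTSL2 3.72; PLAT 2.51), 3 lower (PAPLN -5.22; RHBDF2, a partner of ADAM17, -3.36; TSPAN33, a tetraspanin partner of ADAM10, -2.55) and a median of 0.17.

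Between neighboring stages, where between 0.0092% and 4% of all genes were called, these partners were called. At 36h against t0 the serpin SERPINE2 (3.42), RHBDF1 (1.99), TNC (4.75) and CDH2 (2.70) rose. The calls over all genes in that comparison fell to 0.368% without differentiation 2 and to 0.436% without 3. Whether these partners kept their calls there is not given here. At P1 against 36h the proprotein convertase PCSK5 (3.32) and COL3A1 (7.95) rose and CDH1 (-5.70) fell. These calls were lost with only these groups in the fit, when 0% of all genes were called. At P5 against P1, A2M (4.78), PCSK6 (3.58) and EFNB2 (1.98) rose, and PCSK5 (-2.83), RHBDF2 (-3.26), NCAN (-1.84) and the Notch ligand DLL1 (-5.48) fell. With only P1 and P5 in the fit 2 genes in all (0.0115%) were called, so at most 2 of these calls were kept. None was called between P5 and P8 by edgeR. A2M (2.46) and AREG, an EGF receptor ligand shed by ADAM17 (6.78), rose at P9 and P10. Both calls were lost without differentiation 2, without 3 and with only these groups in the fit, when 0% of all genes were called. Between the fractions none was called at P5 or P8, and from P5 to P8 TNC (3.06) and COL5A1 (1.60) rose in MES and RHBDF1 (1.33) in EPI. The calls from P5 to P8 were lost without differentiation 2, without 3 and with only the compared groups. In those fits 0% of all genes were called in either fraction. RHBDF1 also lost its call without the replicate block (0% of all genes). VCAN, versican, the substrate of ADAMTS1, ADAMTS4 and ADAMTS9, had 104, 80.6 and 72.7 TPM at t0, 292, 298 and 336 TPM at P5 and 272, 140 and 270 TPM at P8, and rose from t0 to P8 (log2 fold change 1.37, adjusted p = 0.0037). RECK, a membrane-anchored inhibitor of MMP14 and MMP2, gave 0.78 from t0 to P8 (adjusted p = 0.018). At P5 it had 9.55, 14.6 and 15.2 TPM in EPI and 20.9, 29.5 and 22.8 TPM in MES, without overlap (1.10, adjusted p = 0.053).

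Several members share their place in the genome with other genes. TIMP1 (chrX:47582313-47586789), TIMP3 (chr22:32801701-32863043) and TIMP4 (chr3:12153051-12159351) each lie within a synapsin gene on the opposite strand, SYN1, SYN3 and SYN2, with mean levels of at most 8.07, 10.7 and 4.67 TPM. TIMP4 and SYN2 also share exon sequence, and at P9 SYN2 had 2.67 and 2.93 TPM when TIMP4 had 0.27 and 0.31 TPM. SYN3 was highest at t0, where TIMP3 was lowest, and had 0.663 TPM at P5. MMP24 and MMP25 have exons that overlap the antisense genes MMP24OS (19.2 to 45.5 TPM by condition) and MMP25-AS1 (5.03 to 10.3 TPM). MMP24OS was above MMP24 in each condition. MMP25 had a mean of 20.4 TPM at t0 against 5.36 TPM for MMP25-AS1, and 2.20 against 10.3 TPM at P8. Without the strand setting, reads of such an overlap cannot be told apart. ADAMTS8 and ADAMTS15 are neighbors on chromosome 11, yet ADAMTS8 fell to at most 0.21 TPM at P8 where ADAMTS15 had 8.00, 20.3 and 12.1 TPM. ADAMTS7 has the near copies ADAMTS7P1, ADAMTS7P3 and ADAMTS7P4, whose means reached at most 1.19, 0.1 and 3.99 TPM, so its values depend on how shared reads were split.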

How the data were processed

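RNA was extracted from WA09 cells at 12 time points and from fractions, and polyA libraries were read as 75 bp single ends. Per the submitters' processing notes the authors used cutadapt 1.16, STAR 2.5.2b, RSEM 1.3.0 and GRCh38; the annotation release and strand setting are not given in the sources used here. Each deposited table lists RSEM expected counts, which the authors estimated per gene, of which 9.33% were not whole and which were rounded here. The deposited TPM values, computed by the authors, give levels per length. The authors' effective length (a deposited column in bases, unit other) was used for one alternative scaling. No column was left unmapped (0). Gene symbols came from GENCODE 29 for 57447 of 58051 genes, and 604 had no match.

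edgeR 4.0.16 (R 4.3.3, limma 3.58.1) fitted its quasi-likelihood model with TMM scaling, filterByExpr and the differentiation number as a block, in 1 fit of 35 whole cultures (21750 genes, biological coefficient of variation 34%) and 1 fit of 12 fractions (18885 genes, 22.8%), with Benjamini-Hochberg adjustment over all genes. Standard errors are the log2 fold change divided by the square root of F. Calls follow the study's thresholds of 1% FDR, a fold change of 2 and a mean of 100 normalized counts. The design text states that each experiment ran through all time points, so the number pairs the libraries; deviations of same-numbered libraries correlated at 0.65 and 0.78 for the fractions at P5 and P8, and at -0.01 for 36h against t0. The replicates are separate differentiations of 1 line. On simulated counts, 87.5% of genes raised 4-fold and 25% of genes raised 2-fold were recovered for 36h against t0, and 85% and 35% for MES against EPI at P5. Unlike the data, the simulation held no differences between differentiations and few changed genes. In the data edgeR called 0% of all genes for MES against EPI at P5. The simulated shares therefore do not give the recovery to be had in the data.

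The text names each called member, TIMP1 to TIMP4, MMP2, MMP14, ADAM10 and ADAM17 in each comparison, the 10 highest members, those next to the TPM threshold, the called partners (at most 4 per direction and list), VCAN and RECK; other members were named after their values were seen. The members, lists and thresholds were chosen with earlier results of these data known. Alternatives were DESeq2 1.42.0, its size factors, no block, other count filters, FDR of 5%, no fold minimum, other sets of libraries in the fit and leaving out each differentiation, the P1 library of differentiation 1 or the P10 library of differentiation 1. Tables and figures used Python 3.11.15, pandas 2.3.3 and matplotlib 3.10.9.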

Additional observations from a re-analysis of the deposited data

How the results depend on the processing

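The number of called members depended on the fit in these comparisons; the share of all genes called in the same fit is given in parentheses. For 36h against t0 (5 members, 2.69% of all genes) it was 3 (3.32%) with 10 or more counts in each library, 2 (0.92%) with only the compared groups in the fit and between 0 and 4 (0.368% to 3.96%) without 1 differentiation. For P1 against 36h (0, 1.19%) it was 4 (2.63%) with DESeq2, 1 (1.94%) with all 47 libraries in 1 fit, 5 (2.9%) at FDR under 5% and between 0 and 6 (0.00888% to 4.23%) when a replicate was left out. For P5 against P1 (5, 4%) it was 0 (0.0115%) with only the compared groups, 4 (4.54%) with 10 or more counts in each library, 7 with DESeq2 (5.79%) and with all 47 libraries (4.99%), 8 (6.11%) at FDR under 5% and between 1 and 8 (0.471% to 5.48%) without a replicate. For P9 and P10 against P8 (1, 1.25%) it was 0 without the replicate block (0.17%) and with only the compared groups (0%), 2 (2%) with 10 or more counts in each library, 3 (2.31%) with all 47 libraries, 7 with DESeq2 (3.4%) and at FDR under 5% (3.61%), and between 0 and 9 (0% to 4.64%) without a replicate. For P8 against t0 (19, 15.3%) it was 16 (19.1%) with 10 or more counts in each library, 21 with DESeq2 (16.4%), with only the compared groups (17.5%) and without a fold change minimum (27.4%), 22 (17%) at FDR under 5% and between 9 and 17 (9.31% to 16.5%) without a replicate. For MES against EPI at P5 (0, 0%) it was 4 (3.59%) with DESeq2 and 3 (2.67%) at FDR under 5%. For P8 against P5 in MES (1, 0.699%) it was 0 without the replicate block (0.0053%), with all 47 libraries (0.0546%) and with only the compared groups (0%), 4 (3.98%) with DESeq2, 2 (3.24%) at FDR under 5% and between 0 and 1 (0% to 1.17%) without a replicate. For P8 against P5 in EPI (0, 0.259%) it was 2 with DESeq2 (3.21%) and at FDR under 5% (2.61%), and between 0 and 2 (0% to 2.01%) without a replicate. Besides the block results above, the counts without the block were 4 (2.04%), 4 (3.31%) and 18 (14.8%) for 36h against t0, P5 against P1 and P8 against t0, and they were the same with and without it in the other comparisons. The fit with only the compared groups could not be made for the interaction. The cause of these shifts was not tested; leaving out a replicate leaves fewer libraries.

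In P8 against t0, 6 members were called in each fit that left out 1 differentiation: ADAMTS8, ADAMTS10, ADAMTS18, ADAMTS19, TIMP2 and TIMP3, of which ADAMTS8 met the TPM threshold at t0 alone. For 36h against t0, P5 against P1, P9 and P10 against P8 and P8 against P5 in MES that number was 0. Over 110 values of named genes and 1327 alternatives, 1208 kept direction and side of the threshold, 67 lost a call, 14 gained one and 38 changed sign. The sign changes concern values that were not called. On the log2 scale, leaving out a replicate gave between -0.091 and 0.012 for TIMP1, -0.135 and 0.20 for TIMP2 and -0.15 and 0.16 for ADAM10 at 36h against t0; between -0.23 and 0.62 for TIMP4, -0.60 and 0.23 for MMP2, -0.55 and 0.13 for MMP14 and -0.19 and 0.015 for ADAM10 at P1 against 36h; and between -0.074 and 0.46 for MMP2, -0.30 and 0.013 for ADAM10 and -0.14 and 0.025 for ADAM17 at P5 against P1. It gave between -1.17 and 0.36 for TIMP4, -0.12 and 0.30 for MMP2 and -0.042 and 0.049 for ADAM17 at P8 against P5, between -0.029 and 0.18 for TIMP1 and -0.051 and 0.04 for ADAM10 at P9 and P10 against P8, and between -0.09 and 0.04 for ADAM10 at P8 against t0. In the fractions it gave between -0.041 and 0.036 for ADAM10 at P5, -0.068 and 0.20 for TIMP1 at P8, -0.69 and 1.72 for TIMP4, -0.085 and 0.70 for MMP2 and -0.17 and 0.055 for ADAM17 in MES from P5 to P8, -1.27 and 0.51 for TIMP4 and -0.12 and 0.68 for MMP2 in EPI, and between -0.17 and 0.044 for TIMP2 and -0.195 and 0.036 for MMP2 in the interaction. ADAM10 also changed sign with the filter on low genes removed at 36h against t0 (0.004) and at P8 against t0 (0.005), with only the compared groups at P9 and P10 against P8 (-0.002), and in the P5 fractions with DESeq2 and its size factors (-0.005 in both), the filter on low genes removed (-0.013), a minimum of 10 counts per library (-0.011) and all 47 libraries (-0.018).

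The sums of TPM kept their order under both other scalings. Members near 0 counts are a limit: MMP13 could not be tested in the fractions, and MMP1, MMP9 and ADAM18 never reached the mean of 100 normalized counts.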
